A study of Sus scrofa with 18 samples.

Results

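The 5 genes examined here encode gap junction proteins: GJA1 (Cx43), GJC1 (Cx45), GJA4 (Cx37), GJA5 (Cx40) and GJB2 (Cx26). The rule that picks them uses names and coordinates, not measured values, although they were proposed with earlier results of these data known, and they are 5 of 19550 protein-coding RefSeq genes on the named chromosomes of Sscrofa11.1. H3K4me3, a mark of active promoters, and H3K27ac, a mark of active promoters and enhancers, were profiled by CUT&Tag, which cuts DNA at antibody-bound chromatin. The tissue was the mesometrial-side myometrium of Yorkshire gilts on day 15, in 3 groups: circular muscle of pregnant gilts (GD15M_CM), longitudinal muscle of pregnant gilts (GD15M_LM) and circular muscle of cyclic gilts (CD15M_CM). Each group had 2 gilts and IgG controls, and the pregnant gilts had been mated naturally. The paper compared the layers with a paired design for RNA. Whether both pregnant groups here came from the same gilts is not stated. A muscle layer is a mixed tissue, and also holds vessels and other cells.

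A connexin inserts into the cell membrane and assembles with others into a hemichannel, and hemichannels of neighbouring cells dock to form a channel that passes ions and small molecules. In the myometrium such channels couple smooth muscle cells electrically, so that a wave of excitation can spread through the muscle. Cx43 is the principal connexin of the contracting uterus, Cx45 is another connexin of smooth muscle cells, Cx37 and Cx40 are best known from vessel walls, and Cx26 from epithelia. In bulk tissue, a mark carried by fewer cells cannot be told apart from a weaker mark in each cell.

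The values are those of peaks called on the pooled reads of both gilts, 1 list per mark and group, between 31910 and 36331 peaks for H3K4me3 and between 57010 and 82037 for H3K27ac. The lists carry no read depth and no value per gilt, so the variation from gilt to gilt is unknown and no difference below was tested. A fold enrichment is the signal of the mark at a peak over a background level. The study's methods do not state whether IgG set that level. Because lists called separately are not on 1 scale, peaks were ranked on fold enrichment among the peaks of the same list, and each gene received the percentile of its highest peak from 10 kb before to 10 kb after the gene, or 0 without a peak. A difference of at least 10 percentile points is used below as a size worth naming, not as a test. The gene models carry no strand here, so the ends of a gene are called lower and upper by their coordinates. Of 9 smooth muscle markers, ACTA2, MYH11, TAGLN, CNN1, DES, ACTG2, SMTN, LMOD1 and MYOCD, 9 had a peak of both marks in all 3 groups. Since most genes had a peak, this could not check the layer or pregnancy labels. The medians of their H3K4me3 percentiles were 80.9 (GD15M_CM), 91.1 (GD15M_LM) and 86.1 (CD15M_CM).

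The connexin genes fell into 3 levels. GJA1 and GJC1 carried peaks of both marks in all 3 groups, at percentiles of 70.3 or above. Not all of these values were high for a gene with a peak. For H3K27ac, GJC1 in GD15M_CM and GJA1 in CD15M_CM, at 70.3 and 79.3, lay below the medians of such genes, 89.8 and 88.3. GJC1 in GD15M_CM was also just below the H3K4me3 median, 82.9 against 83.1. GJA4 and GJA5 carried an H3K4me3 peak in all 3 groups, of middle rank among all peaks of a list, with little H3K27ac. Among genes with an H3K4me3 peak they ranked low, since the median of such genes was 82.2 to 84.2. Of all protein-coding genes, 74.1%, 72.1% and 77.0% ranked at or above GJA5 in GD15M_CM, GD15M_LM and CD15M_CM. GJB2 carried no H3K4me3 peak in any group. For H3K4me3, 4 of the 5 genes thus had a peak in each group, where 77.1%, 78% and 78.6% of all protein-coding genes did in GD15M_CM, GD15M_LM and CD15M_CM. For H3K27ac, 3 of 5 had one in GD15M_CM, 3 of 5 in GD15M_LM and 5 of 5 in CD15M_CM, beside 77.7%, 77% and 79.5% of all genes. With so few members, these shares do not set the connexin genes apart.

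**Figure D1:**
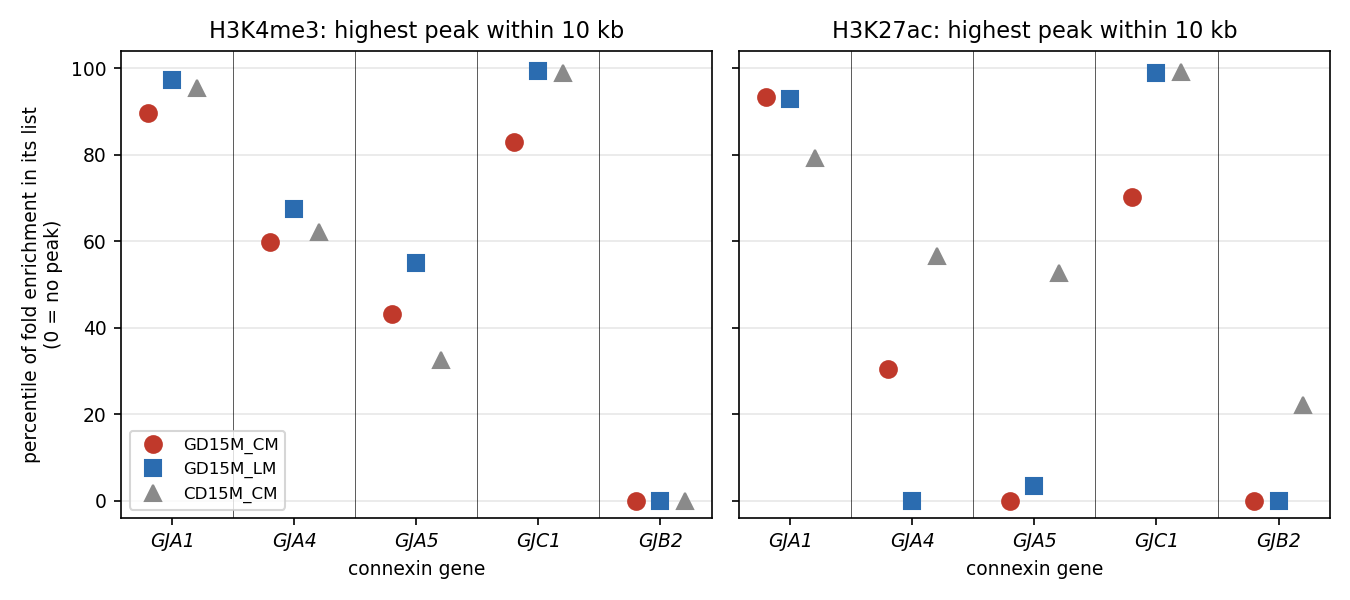
Percentile of the highest peak within 10 kb of each connexin gene (y axis, 0 for no peak) for H3K4me3 on the left and H3K27ac on the right; each point is 1 list called on the pooled reads of 2 gilts. GJA1 and GJC1 sit at 70.3 or above in both panels, GJA4 and GJA5 lie lower, and GJB2 is above 0 only for H3K27ac in CD15M_CM.

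GJA1, the gene of the main myometrial connexin, lies at chr1:40988818-41002129, and no other RefSeq gene reaches its window. Its H3K4me3 formed 1 strong domain at the upper end of the gene in each group. In GD15M_CM the domain lay at chr1:40999130-41002285, 3156 bp long, at 20.2-fold enrichment and a percentile of 89.7. In GD15M_LM it lay at chr1:40996780-41002328, 5549 bp long, at 33.4-fold enrichment and a percentile of 97.2. In CD15M_CM it lay at chr1:40998864-41002294, 3431 bp long, at 30.1-fold enrichment and a percentile of 95.5. The order was therefore GD15M_LM, CD15M_CM, GD15M_CM, and the longitudinal domain reached farthest into the gene body while all 3 stopped at nearly the same place, 13467, 13510 and 13476 bp from the lower end of the gene in GD15M_CM, GD15M_LM and CD15M_CM. The GD15M_CM domain was contained in full in both others and made up 56.9% of the GD15M_LM domain. A smaller peak preceded it inside the gene in each group, with percentiles of 42.8, 19.7 and 59.3.

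The highest H3K27ac peaks at GJA1 lay inside the same domain. GD15M_CM had one of 1432 bp at 5.89-fold enrichment and a percentile of 93.4. GD15M_LM had 4 peaks there, the highest of 836 bp at 6.75-fold enrichment and a percentile of 92.8. In CD15M_CM the highest of 5 peaks was a short one of 335 bp at 4.54-fold enrichment and a percentile of 79.3, and the longest, 1614 bp at the gene end, had a percentile of 72.8. The highest peak thus ranked lower in cyclic muscle. Outside the domain, farther into the gene, lay 3 of the 5 cyclic peaks and 1 of the 2 GD15M_CM peaks, the latter at nearly the same place as a cyclic one. The difference between the pregnant groups, GD15M_LM minus GD15M_CM, was only -0.609 points and changed direction under 2 of the 8 alternatives described under the processing. The acetylated part covered 45.4% of the H3K4me3 domain in GD15M_CM, 35.5% in GD15M_LM and 56.8% in CD15M_CM. GD15M_CM exceeded CD15M_CM by 14.1 points for this mark (8.10 when ranked by −log10 p), whereas CD15M_CM was 5.76 points higher for H3K4me3. Among all genes with a peak in either group, 16.9% had an H3K27ac difference at least as large in that direction.

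GJC1, which encodes the other smooth muscle connexin, lies at chr12:18526060-18560221. It gave a wider contrast between the groups than GJA1 for both marks. Its H3K4me3 domain stood at the lower end of the gene. In GD15M_CM it was 1940 bp long, at chr12:18525879-18527818, at 16.8-fold enrichment and a percentile of 82.9. In GD15M_LM it was 3619 bp long, at chr12:18525309-18528927, at 41.1-fold enrichment and a percentile of 99.4. In CD15M_CM it was 3358 bp long, at chr12:18525436-18528793, at 38.7-fold enrichment and a percentile of 99.0. Longitudinal pregnant and circular cyclic muscle were 0.417 points apart, and they exceeded the pregnant circular muscle by 16.4 and 16.0 points. Only 1.48% of all protein-coding genes ranked as high as GJC1 in GD15M_LM and 2.75% in CD15M_CM, against 38.9% in GD15M_CM.

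The same division was present for H3K27ac at GJC1. In GD15M_CM the peak at the gene end was 343 bp long, at 4.08-fold enrichment and a percentile of 70.3. In GD15M_LM it was 1167 bp long, at 9.04-fold enrichment and a percentile of 98.8, and in CD15M_CM 1299 bp long, at 7.90-fold enrichment and a percentile of 99.0. The pregnant circular muscle was 28.5 points below the longitudinal muscle, a difference that 7.92% of all genes equalled or exceeded, and 28.7 points below the cyclic circular muscle. Acetylation covered 17.7% of the H3K4me3 domain in GD15M_CM, 32.2% in GD15M_LM and 44.8% in CD15M_CM. Both comparisons use the GD15M_CM libraries, so a low value in these enters both. HIGD1B, whose end lies 2907 bp from GJC1, falls within the window. Weaker H3K4me3 peaks near its far end reached percentiles of 33.9, 46.6 and 63.8 in GD15M_CM, GD15M_LM and CD15M_CM and did not set the value of GJC1. CD15M_CM also had 3 H3K27ac peaks beyond the upper end of GJC1, 4664 to 8631 bp away, where neither pregnant group had any.

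**Figure D2:**
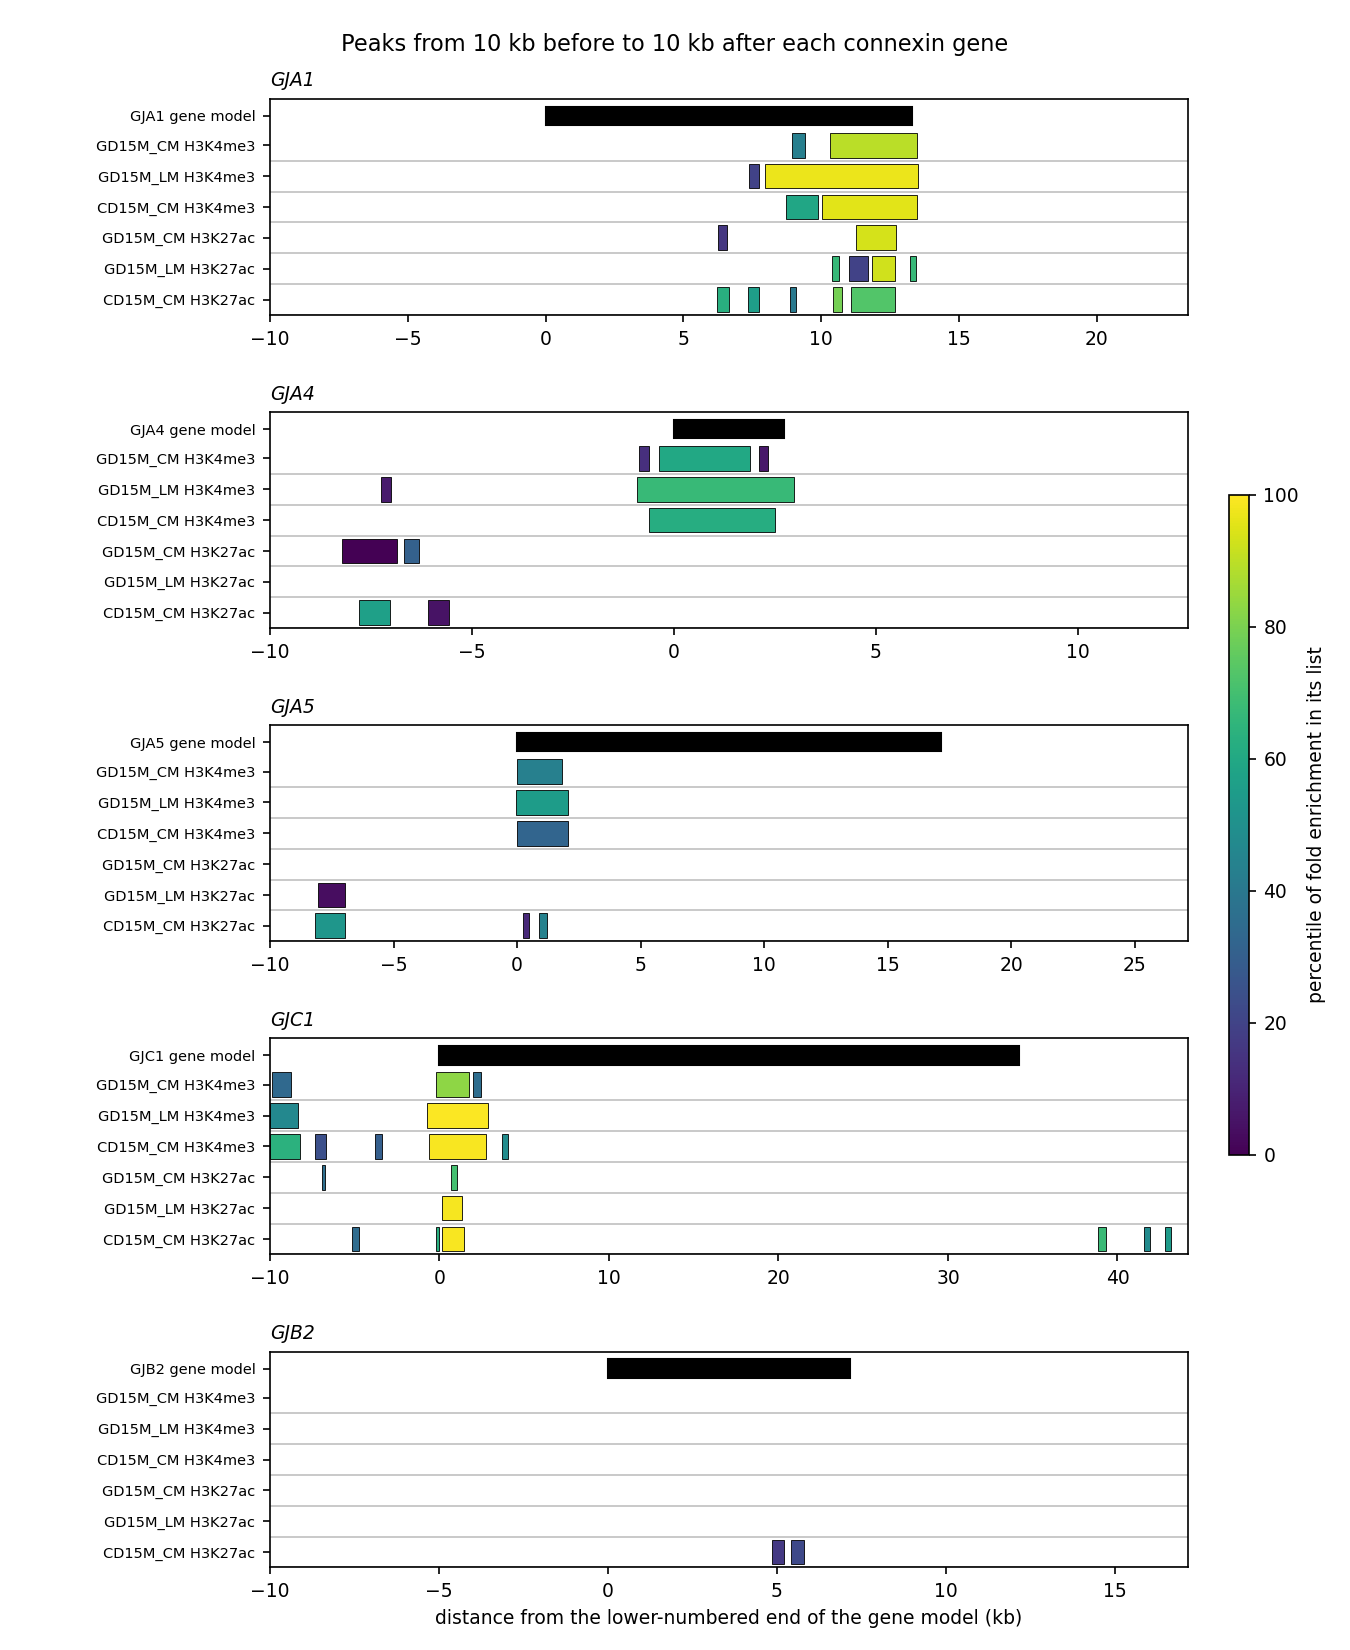
Peaks of the 6 lists along each connexin gene; the x axis is the distance from the lower-numbered end of the gene model in kb, the black bar is the gene model, and the colour of each box is the percentile of the peak in its list. H3K4me3 domains stand at the upper end of GJA1, across GJA4 and at the lower ends of GJA5 and GJC1, with no H3K27ac box over the GJA4 domain.

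GJA4, a connexin gene of vessel walls, lies at chr6:91045430-91048161 and is only 2732 bp long. One H3K4me3 domain covered most of it in each group. It measured 2273, 3895 and 3127 bp in GD15M_CM, GD15M_LM and CD15M_CM. Its fold enrichments were 6.72, 13.3 and 7.47, and its percentiles 59.9, 67.4 and 62.1 in the same order. The groups lay within 7.55 points of each other, and the order was that of GJA1. The difference between GD15M_LM and GD15M_CM was wider, 14.6 points, with peaks less than 1 kb apart joined, and 23.0 points under a stricter peak threshold. All 3 values lay below the median of genes with a peak, which was 82.2 to 84.2.

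GJA4 carried no H3K27ac on its H3K4me3 domain in any of the 3 groups. Among genes whose highest H3K4me3 peak ranked between the 60th and 80th percentile, 96.3% in GD15M_LM and 94.4% in CD15M_CM had H3K27ac on that peak. For GD15M_CM, where GJA4 fell just under that band, the share was 62.2% between the 40th and 60th percentile and 94.4% in the next band. The H3K27ac peaks in the GJA4 window lay 5579 to 7020 bp outside the gene. The highest had a percentile of 30.5 in GD15M_CM and 56.6 in CD15M_CM, and GD15M_LM had none. The H3K27ac values given for GJA4 therefore describe chromatin outside the gene, not the GJA4 domain.

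GJA5, the other vascular connexin gene, lies at chr4:99854129-99871288 with no other gene in its window. It had a single H3K4me3 peak at its lower end in each group. The peak was 1807 bp long at 4.28-fold enrichment and a percentile of 43.1 in GD15M_CM. It was 2085 bp long at 6.90-fold enrichment and a percentile of 54.9 in GD15M_LM, and 2044 bp long at 3.60-fold enrichment and a percentile of 32.4 in CD15M_CM. The position was nearly the same in all groups, the part common to them making up 100%, 86.7% and 88.4% of the 3 peaks. GD15M_LM was again the highest, but here CD15M_CM was the lowest, and 2.20% of all genes had a difference between them at least as large in that direction. The order of both circular groups rested on the measure, since GD15M_CM minus CD15M_CM was 10.7 points by fold enrichment and -4.97 points by −log10 p.

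For H3K27ac, CD15M_CM was instead the highest at GJA5. GD15M_CM had no peak in the window, and GD15M_LM a single weak one, 1104 bp long and 6951 bp below the gene, at a percentile of 3.26. CD15M_CM had a peak of 1207 bp at nearly the same place with a percentile of 52.6, and 2 short peaks of 246 and 306 bp on the H3K4me3 domain with percentiles of 11.5 and 44.0. Acetylation thus covered 552 of the 2044 bp of the GJA5 domain in CD15M_CM and none in either pregnant group. Among genes with an H3K4me3 peak between the 20th and 40th percentile in CD15M_CM, 43.9% had H3K27ac on it, and between the 40th and 60th percentile 62.2% in GD15M_CM and 61.1% in GD15M_LM did.

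**Figure D3:**
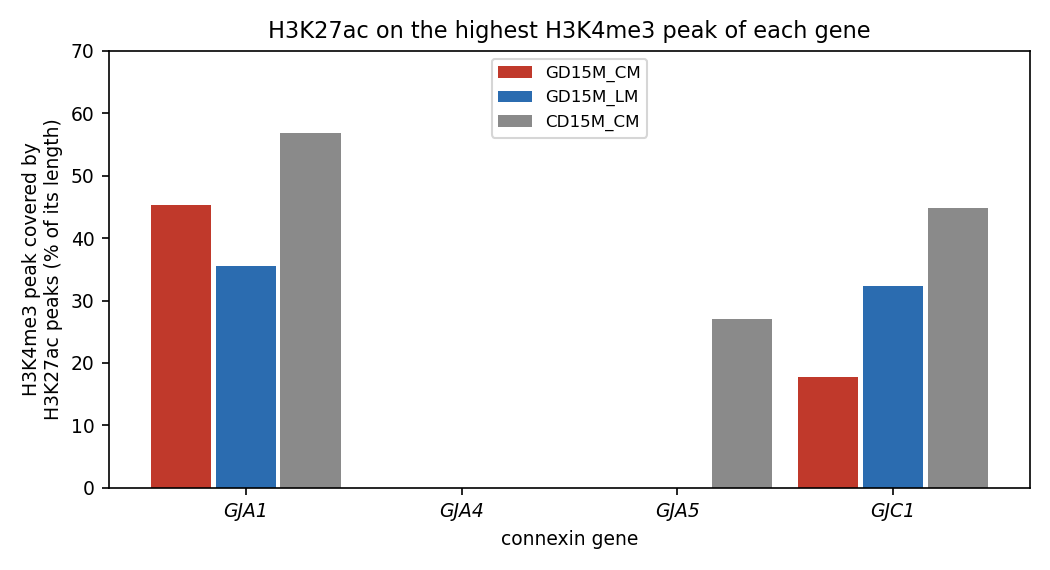
Share of the length of each gene's highest H3K4me3 peak that was covered by H3K27ac peaks of the same group (y axis, %, bars from 0), for the 4 connexin genes with an H3K4me3 peak. GJA1 and GJC1 have a bar in all groups, GJA5 only in CD15M_CM (552 of 2044 bp) and GJA4 in none.

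The marks of vascular genes were read beside GJA4 and GJA5. Of 10 endothelial markers (PECAM1, CDH5, VWF, TEK, TIE1, KDR, ERG, CLDN5, EGFL7 and SOX17), 9 could be placed, and 9 of 9 had an H3K4me3 peak in each group. Of all genes, 77.1%, 78% and 78.6% had one in GD15M_CM, GD15M_LM and CD15M_CM. The percentiles of these markers ran from 59.0 to 94.1 in GD15M_CM, from 57.3 to 72.5 in GD15M_LM and from 59.7 to 86.5 in CD15M_CM. The GJA4 values lay inside these ranges and those of GJA5 below them. For H3K27ac, 8, 6 and 8 of the 9 markers had a peak in GD15M_CM, GD15M_LM and CD15M_CM, beside 77.7%, 77% and 79.5% of all genes. KDR was at 0 in all 3 groups, and ERG and SOX17 were at 0 in GD15M_LM as well. The part of endothelial cells in the values of GJA4 and GJA5 was not tested.

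GJB2, an epithelial connexin gene, lies at chr11:774090-781252, 217 bp from the long noncoding RNA gene LOC110255785. No H3K4me3 peak was listed in its window in any group, and only CD15M_CM had H3K27ac there. These were 2 short neighbouring peaks inside the gene, of 380 and 378 bp, with fold enrichments of 2.73 and 2.87 and percentiles of 16.7 and 22.2. Neither passed a stricter threshold that asked for a −log10 p of 10 and 5-fold enrichment or more. Epithelial markers were read beside it, and of EPCAM, CDH1, KRT8, KRT18, KRT7, KRT19, ESRP1, GRHL2, ELF3 and CLDN4, 9 could be placed. All 9 had an H3K4me3 peak in both circular groups and 8 in GD15M_LM, with ELF3 at 0. Of all genes, 77.1%, 78% and 78.6% had one in GD15M_CM, GD15M_LM and CD15M_CM, so these counts could not check for epithelial cells. The medians of these markers were 79.4, 59.0 and 78.5 in the same order. Each was taken, as for GJB2, from the highest peak within 10 kb and not only at the gene's own ends.

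Set side by side, the layers of pregnant muscle differed in 1 direction for H3K4me3. All 4 connexin genes with a peak ranked higher in GD15M_LM than in GD15M_CM, by 7.54 points at GJA1, 7.55 at GJA4, 11.8 at GJA5 and 16.4 at GJC1, where 48.6% of 15490 genes ranked higher in that direction and 51.4% in the other. By at least 10 points, 2 of 4 were higher in GD15M_LM and 0 of 4 in GD15M_CM, beside 18.2% and 18.6% of all genes. The direction of all 4 held under each of the 8 alternatives, but the count past 10 points was 4 of 4 with peaks joined and under the stricter threshold. Ranked by −log10 p, the 2 genes past 10 points were GJA1, at 18.2, and GJC1. The smooth muscle markers moved the same way, with 3 of 9 at least 10 points higher in GD15M_LM and 0 of 9 in GD15M_CM and a median difference of 8.82 points. The part of a different share of smooth muscle cells was not tested. For H3K27ac the members were divided: GJC1 and GJA5 ranked higher in GD15M_LM and GJA1 and GJA4 in GD15M_CM, where 42.7% of 15655 genes ranked higher in GD15M_LM and 57.3% in GD15M_CM. By at least 10 points, only GJC1 was higher in GD15M_LM and only GJA4 in GD15M_CM, beside 19.3% and 29.4% of all genes.

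Pregnant and cyclic circular muscle differed less uniformly. For H3K4me3, 3 of 4 connexin genes ranked higher in CD15M_CM, as did 59.3% of 15500 genes, and the exception was GJA5 (40.7% of all genes). Only GJC1, at 16.0 points, passed 10 points in that direction (21.5% of all genes did), and only GJA5 passed it in the other (11.1%). The GJA5 difference was 5.86 points with peaks joined, and under the stricter threshold neither group kept its peak. For H3K27ac, 4 of 5 members ranked higher in CD15M_CM, as did 50.4% of 15871 genes. All 4 did so by at least 10 points, with 52.6 at GJA5, 28.7 at GJC1, 26.1 at GJA4 and 22.2 at GJB2, where 23.1% of all genes did. GJA1 went the other way by 14.1 points, where 49.6% of all genes ranked higher in GD15M_CM and 21.9% by at least 10 points. Ranked by −log10 p, this GJA1 difference was 8.10 points. Under the stricter threshold GJA1 kept an H3K27ac percentile of 45.6 in GD15M_CM and no peak in CD15M_CM, and GJC1 no peak in GD15M_CM and 91.9 in CD15M_CM. Of 6 T cell markers, PTPRC, CD3E, CD3D, CD8A and LCK could be placed. For H3K4me3, 5 of 5 were at least 10 points higher in GD15M_CM (11.1% of all genes), with medians of 68.0 against 51.7. Apart from PTPRC, the paper reports these genes as highly expressed in GD15M_CM, so this direction was known beforehand. CD3E and CD3D had the same percentile in each pregnant group, 68.0 and 61.7, and are not separate values there. For H3K27ac, 1 of 3 was at least 10 points higher in GD15M_CM and 0 of 3 in CD15M_CM. Of the smooth muscle markers, 4 of 9 were at least 10 points higher in CD15M_CM and 1 of 9 in GD15M_CM for H3K4me3, and 2 and 0 of 9 for H3K27ac. The part of these cells in the connexin values was not tested. CD15M_CM also had the longest H3K27ac list, 82037 peaks, against 79877 in GD15M_CM, a list of similar length, and 57010 in GD15M_LM. In the 5 windows lay 18 peaks of CD15M_CM against 6 of GD15M_CM and 6 of GD15M_LM. Without peaks at the ends of other genes, GJA4 was 25.5 points higher in GD15M_CM. At GJB2 and GJA5 the lower group had no peak, so these differences are the percentile of a middle or low peak against none.

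Longitudinal pregnant and circular cyclic muscle differ in both layer and pregnancy, which cannot be told apart in this pair. For H3K4me3, 4 of 4 connexin genes ranked higher in GD15M_LM, beside 40.8% of 15578 genes (59.2% ranked higher in CD15M_CM), but only GJA5, by 22.5 points, passed 10 points (11.5% of all genes). Ranked by −log10 p, GJA5 was 4.80 points higher in GD15M_LM and GJA1 10.2, and GJA4 passed 10 points under 3 other alternatives. GJA1 and GJC1 were 1.79 and 0.417 points apart. For H3K27ac, 4 of 5 ranked higher in CD15M_CM, beside 57.8% of 15726 genes, and 3 of 5 by at least 10 points (30.1%). The 3 were GJA4, GJA5 and GJB2, while GJC1 was higher by only 0.181 points. GJA4 and GJB2 had no peak in GD15M_LM, and the highest peaks of GJA4 and GJA5 lay outside the genes. Without peaks at other gene ends, GJA4 was 5.02 points higher in CD15M_CM. GJA1 was again the exception, 13.5 points higher in GD15M_LM, where 42.2% of all genes ranked higher and 18.4% by at least 10 points, and this difference was 6.97 points when ranked by −log10 p. Of the endothelial markers, 6 of 8 were at least 10 points higher for H3K27ac in CD15M_CM and 0 of 8 in GD15M_LM. Their median difference, GD15M_LM minus CD15M_CM, was -13.8 points. Between the circular groups these markers were divided for H3K27ac. There 2 of 8 were at least 10 points higher in GD15M_CM and 3 of 8 in CD15M_CM, with a median difference, GD15M_CM minus CD15M_CM, of -3.60 points. For H3K4me3, 8 of 9 epithelial markers were at least 10 points higher in CD15M_CM than in GD15M_LM (22.2% of all genes). From GD15M_CM to GD15M_LM, 7 of 9 were higher in GD15M_CM (18.6%). ESRP1 went the other way, at 99.1 in GD15M_LM, 79.4 in GD15M_CM and 92.7 in CD15M_CM. For H3K27ac these markers were divided, 4 of 9 being at least 10 points higher in CD15M_CM and 3 of 9 in GD15M_LM. Against GD15M_CM, 6 of 9 were higher in GD15M_CM and 1 of 9 in GD15M_LM. The part of either cell type in the connexin values was not tested.

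**Figure D4:**
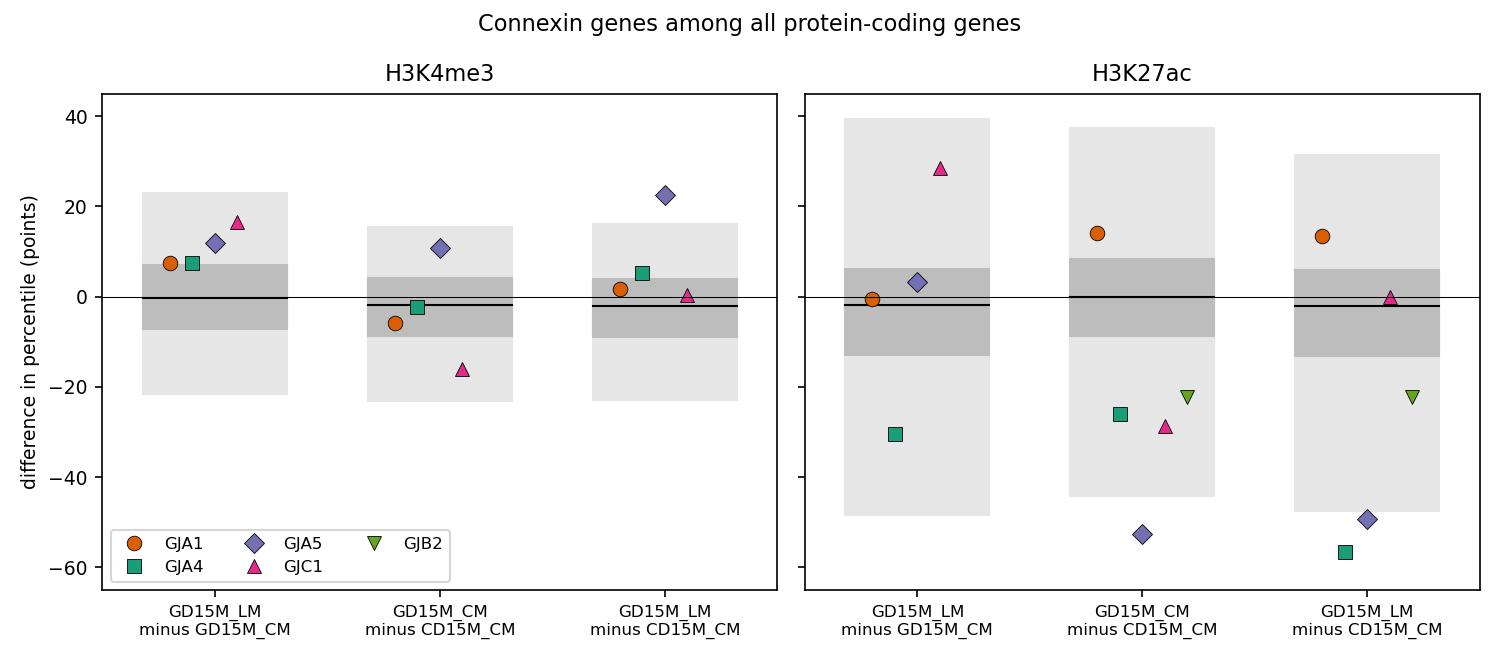
Difference in percentile between groups (y axis, points) for each connexin gene, over the spread of all protein-coding genes with a peak in either group; light grey spans the 5th to 95th percentile of genes, dark grey the middle 50%, and the line is their median. For H3K4me3 all 4 genes lie above 0 for GD15M_LM minus GD15M_CM, and for H3K27ac 4 of 5 lie below 0 for GD15M_CM minus CD15M_CM.

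The rest of the connexin family was read in the same way. Of 16 further connexin genes, 15 could be placed, and 8 of these had no peak of either mark in any group. Among them are GJA3, a connexin of the lens, GJB1 of liver and myelin, GJB6 of the epidermis and inner ear, and GJD2 of neurons. Peaks of H3K4me3 were found within 10 kb of 6, 7 and 7 of the 15 in GD15M_CM, GD15M_LM and CD15M_CM, but at an end of the gene itself of only 3, 4 and 4. Of all genes, 77.1%, 78% and 78.6% had one within 10 kb. GJC3, with TRIM4 in its window, had H3K4me3 percentiles of 71.8 or above but no H3K4me3 peak at its own ends. By H3K4me3, 1 of 7 was at least 10 points higher in GD15M_LM than in GD15M_CM and 1 of 7 the reverse (18.2% and 18.6% of all genes). For H3K27ac these were 1 and 2 of 7 (19.3% and 29.4%). Between GD15M_CM and CD15M_CM, 1 and 2 of 7 were higher in the former and the latter for H3K4me3 (11.1% and 21.5%). For H3K27ac they were 2 and 3 of 7 (21.9% and 23.1%). Of the family members outside the 5, GJA9 and GJD4 had the widest contrasts. GJA9, within reach of MYCBP and RHBDL2, had an H3K27ac percentile of 26.2 in GD15M_LM against 82.7 in CD15M_CM, and GJD4 1.23 against 49.9. The GJA9 peaks lay at an end of GJA9 but also at an end of another gene. Without peaks at the ends of other genes, GJA9 had no H3K27ac peak in any group. The GJD4 window also holds LOC110255709, and without peaks at the ends of other genes its CD15M_CM value was 10.3.

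Pannexins, which form related membrane channels, and proteins that anchor or regulate connexins were marked more widely. Of 12 such genes, among them PANX1, PANX2, PANX3, TJP1, CDH2, CTNNB1, CAV1 and SRC, 11 could be placed, and all 11 had an H3K4me3 peak in each group. Of all genes, 77.1%, 78% and 78.6% had one in GD15M_CM, GD15M_LM and CD15M_CM. By H3K4me3, 5 of 11 were at least 10 points higher in GD15M_LM than in GD15M_CM and 0 of 11 the reverse, with a median difference of 9.26 points, where 18.2% and 18.6% of all genes were. Between GD15M_CM and CD15M_CM, 1 was higher in the former and 2 in the latter (11.1% and 21.5% of all genes). For H3K27ac, 3 and 1 of 11 were higher in GD15M_LM and GD15M_CM (19.3% and 29.4% of all genes), and 2 and 5 in GD15M_CM and CD15M_CM (21.9% and 23.1%). The widest contrast was at CDH2, the N-cadherin of cell junctions, with an H3K27ac percentile of 65.2 in GD15M_LM and no peak in GD15M_CM. CAV1, the main protein of caveolae, had 87.4 in GD15M_LM against 50.9 in GD15M_CM, and PANX2, a pannexin, 21.7 in GD15M_LM against 61.3 in CD15M_CM.

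Genes with the pattern most like that of each connexin gene were named by the smallest distance over the 6 percentiles, the square root of the summed squared differences. For GJA1 these were RUVBL1 (distance 5.21), DPH1 (5.41) and VPS11 (5.44). For GJC1 the nearest was HIGD1B at 0, because its window takes in the same peaks, followed by ASF1A (2.70) and NPTXR (5.07). The vascular connexin genes had no near counterpart, with PCBD1 (16.0), ROPN1L (17.6) and CTSL (17.9) nearest to GJA4 and AOC1 (17.2), CCL24 (19.8) and POU4F1 (19.9) nearest to GJA5. GJB2, with a peak in 1 list only, was not ranked.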

How the data were processed

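All 18 libraries (6 per antibody, H3K4me3, H3K27ac and IgG) could be assigned from their titles. Per the study's methods, the authors mapped reads to Sus scrofa 11.1 with BWA 0.7.17-r1188. Duplicates and reads of mapping quality under 25 were removed with SAMtools 1.9 and Picard 2.8.3. The authors pooled both gilts and called peaks with MACS2 2.2.6, and they name IgG as the control for normalizing the signal. Whether the deposited fold enrichment is a ratio over IgG is not stated there. The −log10 p column deposited by the authors has an unreadable header and was identified by its place and values, and a −log10 q column was not used. Depth per library is not given in the lists.

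RefSeq genes of Sscrofa11.1 have coordinates without strand and sequence here, so the planned motif search was not run and gene ends replaced start sites. A peak was in a window from 1 bp of overlap. Alternatives were a strict threshold, joining peaks less than 1 kb apart, ranking by −log10 p, equal numbers of top peaks, a 3 kb window, 50% of the peak inside, leaving out peaks within 1 kb of other gene ends, and only peaks within 1 kb of the gene's own ends.

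The members and gene lists were chosen with earlier results of these data known. Named were the 5 members, at most 6 others by the largest difference of at least 10 points (some genes of the lists are not reported here), and the 3 nearest genes by pattern for members with a peak in at least 3 lists. Other genes named are those of the fixed lists and neighbours of a window. The overlap code was checked on simulated data. Python 3.11.15, pandas 2.3.3, NumPy 2.4.6 and Matplotlib 3.10.9 were used.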

Additional observations from a re-analysis of the deposited data

How the results depend on the processing

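The 26 differences of single connexin genes between groups gave 208 cases under the 8 alternatives. In 21 of these neither group kept a peak, so the difference was lost. Of the remaining 187, 180 kept their direction, 93 of 95 for H3K4me3 and 87 of 92 for H3K27ac. The 16 differences of at least 10 points gave 128 cases, of which 18 were lost, mainly H3K27ac at GJA4 and GJB2, 102 kept both direction and size, 6 kept the direction at under 10 points, and 2 did not keep it. The first exception was GJA5, where H3K4me3 in GD15M_CM minus CD15M_CM was -4.97 points when ranked by −log10 p. The second was GJA4, where H3K27ac in the same pair was 25.5 points without peaks at other gene ends, because the highest CD15M_CM peak was then left out. Of 96 counts of genes, 85 stayed within 1.5 times. With the strict threshold, 1 gene had an H3K27ac peak in GD15M_CM and 1 in CD15M_CM, 2 ranked higher in GD15M_LM than in CD15M_CM for H3K27ac, and 0 ranked higher in GD15M_CM than in CD15M_CM for H3K4me3. The last count was also 0 when ranked by −log10 p and 2 with equal numbers of top peaks, where 2 ranked higher in GD15M_LM than in CD15M_CM for H3K27ac. For this mark, 1 gene ranked higher in GD15M_LM than in GD15M_CM in the 3 kb window and 1 with peaks at the gene's own ends only, where 3 had a peak in CD15M_CM. Without peaks at other gene ends, 2 ranked higher in GD15M_CM than in CD15M_CM for H3K27ac. No paired analysis was possible because peaks were called on the joined reads of both gilts, and for the same reason no gilt could be left out. The lists give no depth, so a gene without a peak is only one not called at the depth sequenced.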

Other observations

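Peaks 10 to 50 kb from the connexin genes were listed as well, a window chosen after seeing the data. GJA1 had no peak of either mark there in any group, so its peaks within 50 kb all lay inside the gene or at its upper end. GJC1 had 14, 13 and 15 H3K27ac peaks there in GD15M_CM, GD15M_LM and CD15M_CM, many of them in EFTUD2 and ADAM11. The highest in GD15M_LM, chr12:18503117-18503870 in EFTUD2, had a percentile of 88.2, its CD15M_CM counterpart 85.5, and GD15M_CM had no peak overlapping it. Near GJB2, CD15M_CM had an H3K27ac peak 40309 bp away with a percentile of 68.9 that no other group shared.

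Beyond GJA5, which had little H3K27ac in its own window, GD15M_LM had 1 of its strongest H3K27ac peaks. It lay at chr4:99889310-99889911, 18022 bp past the upper end of the gene and in no RefSeq gene, 602 bp long, at 10.2-fold enrichment and percentile 99.6. CD15M_CM had a peak overlapping it, 1004 bp long at 2.30-fold enrichment and percentile 2.69. The nearest GD15M_CM peak, chr4:99888144-99888510, did not overlap it and had a percentile of 49.3. Which gene this region belongs to was not tested, and with pooled gilts the contrast has no replicate check.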
